A study of Mus musculus with 24 samples.

Results

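Glutathione transferases join the tripeptide glutathione to reactive compounds so that cells can clear them, and the expression of 10 of their genes was described in the skin of mice given dihydrotestosterone (DHT, a potent androgen) with or without a topical herbal extract. The genes were Gstt1, Gstt2 and Gstt3 (theta class), Gsta4 (alpha class), Gstm1, Gstm2 and Gstm5 (mu class), Gsto1 (omega class), Gstp1 (pi class) and Hpgds (the sigma-class member), 10 of the 18892 gene symbols in the expression table. They were chosen by symbol, with Gstt1 and Hpgds at the head because both were lower in extract-treated than in DHT-only skin at day 10. That contrast, and for Gstt1 and Hpgds each contrast that uses those same libraries, is therefore given below as values without a test. All 10 genes reached 1 FPKM (fragments corrected for gene length and library size) in at least 4 libraries.

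Skin was sampled from 24 mice, 4 in each of 6 groups. Treatment mice received daily DHT injections and HLX (Hanlianxiang) extract on the skin, model mice received daily DHT injections and solvent on the skin, and control mice received daily saline injections and solvent on the skin. Each group was sampled at day 10 and at day 15, 1 library a mouse. Strain, sex, age and the doses are not given in the sources used here, and whole skin holds many cell types, so a lower level in bulk RNA cannot be told apart from a smaller share of the cells that make it. Skin identity was plain from the epidermal keratin Krt5, whose group means lay between 461 and 733 FPKM, and the lowest level of Krt10 in any library was 149 FPKM.

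Cytosolic glutathione transferases are dimeric enzymes grouped into classes by sequence. Most detoxify electrophiles, among them products of lipid oxidation, which Gsta4 handles with a preference for 4-hydroxynonenal. Many are induced by the stress-responsive transcription factor NRF2 through antioxidant response elements. Hpgds, haematopoietic prostaglandin D synthase, instead uses glutathione as a cofactor to turn prostaglandin H into prostaglandin D, a lipid mediator made by mast cells and by some macrophages, and prostaglandin D is known as an inhibitor of hair growth. Androgens act on hair follicles through their dermal papilla and can slow hair growth.

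Promoter windows in RefSeq (GRCm38.p6), which run 250 bases before to 50 bases after a gene's start, were present for 8 of the 10 genes. Gsta4 and Gstt2 had none. The 250 bases before the start are shown for Hpgds and Gstt1, on which the contrasts below turn, and for Gstm5, the gene whose window held a motif match. Capitals mark the antioxidant response element core TGACNNNGC, searched on both strands.
Hpgds, chr6:65144731-65144980, minus strand: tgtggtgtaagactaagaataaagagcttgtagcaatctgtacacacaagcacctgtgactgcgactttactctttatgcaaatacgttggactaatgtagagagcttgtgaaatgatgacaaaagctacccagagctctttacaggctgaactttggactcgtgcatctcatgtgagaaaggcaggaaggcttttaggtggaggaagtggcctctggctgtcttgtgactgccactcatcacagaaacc
Gstt1, chr10:75797732-75797981, minus strand: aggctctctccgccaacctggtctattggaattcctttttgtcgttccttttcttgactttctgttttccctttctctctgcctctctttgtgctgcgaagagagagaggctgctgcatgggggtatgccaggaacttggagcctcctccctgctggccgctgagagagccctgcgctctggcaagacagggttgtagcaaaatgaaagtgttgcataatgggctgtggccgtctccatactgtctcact
Gstm5, chr3:107895604-107895853, plus strand: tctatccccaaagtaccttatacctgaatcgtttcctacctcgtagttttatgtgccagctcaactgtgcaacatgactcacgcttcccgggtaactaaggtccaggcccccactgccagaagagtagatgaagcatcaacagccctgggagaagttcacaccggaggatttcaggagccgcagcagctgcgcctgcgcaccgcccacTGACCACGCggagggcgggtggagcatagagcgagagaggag
The match in Gstm5 was TGACCACGC, 42 bases before the start. The core occurred in 12.4% of the 32851 RefSeq promoter windows of the same length. The palindromic androgen response element, also searched on both strands, occurred in 3 of them and in none of the windows of the 8 genes. These letters describe the windows shown and nothing about binding of a factor. Bases G and C made up 45.2% of the Hpgds stretch, 52.8% of the Gstt1 stretch and 56.8% of the Gstm5 stretch.

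In level per gene length, the 10 genes fell into an abundant set and a scarce set. Averaged over the 24 libraries, Gstp1 stood highest at 68.8 FPKM, followed by Gstm1 at 55.4, Gstm2 at 48.7, Gstm5 at 47.5 and Gsto1 at 44.1 FPKM. Gstt1 came next at 10.4 FPKM, then Gstt3 at 5.80, Hpgds at 4.29, Gsta4 at 4.10 and Gstt2 at 2.04 FPKM. Gsto1 exceeded Gstt1 in 24 of 24 libraries, and Gstt1 exceeded Gstt3 in 24 of 24. Other neighbours changed places: Gstm2 exceeded Gstm5 in 13 libraries and Hpgds exceeded Gsta4 in 12. The 5 remaining neighbouring pairs kept their order in 17 to 21 libraries.

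How far the group means moved also differed between the genes, which the choice of Gstt1 and Hpgds fixed in part. The highest of the 6 group means was 2.75 times the lowest for Gsta4, 2.43 times for Hpgds, 1.95 times for Gstt2 and 1.94 times for Gstt1. For the 6 other genes this ratio lay between 1.19 (Gstm5) and 1.31 (Gstm2). The highest and lowest groups of Gstt1 and Gstt2 were model and treatment mice of day 10, the contrast that served the choice. The highest group of Hpgds was also model mice of day 10. The ratios of Gstt1 and Hpgds are therefore a description only. The mean coefficient of variation among the 4 mice of a group was 8.76% for Gstm5, 15.0% for Gstt1, 16.1% for Hpgds, 26.8% for Gsta4 and 28.9% for Gstt2. Single libraries moved several of the genes together: model day 15 replicate 2 was the highest of its group in 8 of the 10 genes, model day 15 replicate 3 the lowest in 7, and control day 10 replicate 3 the lowest in 8.

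**Figure D1:**
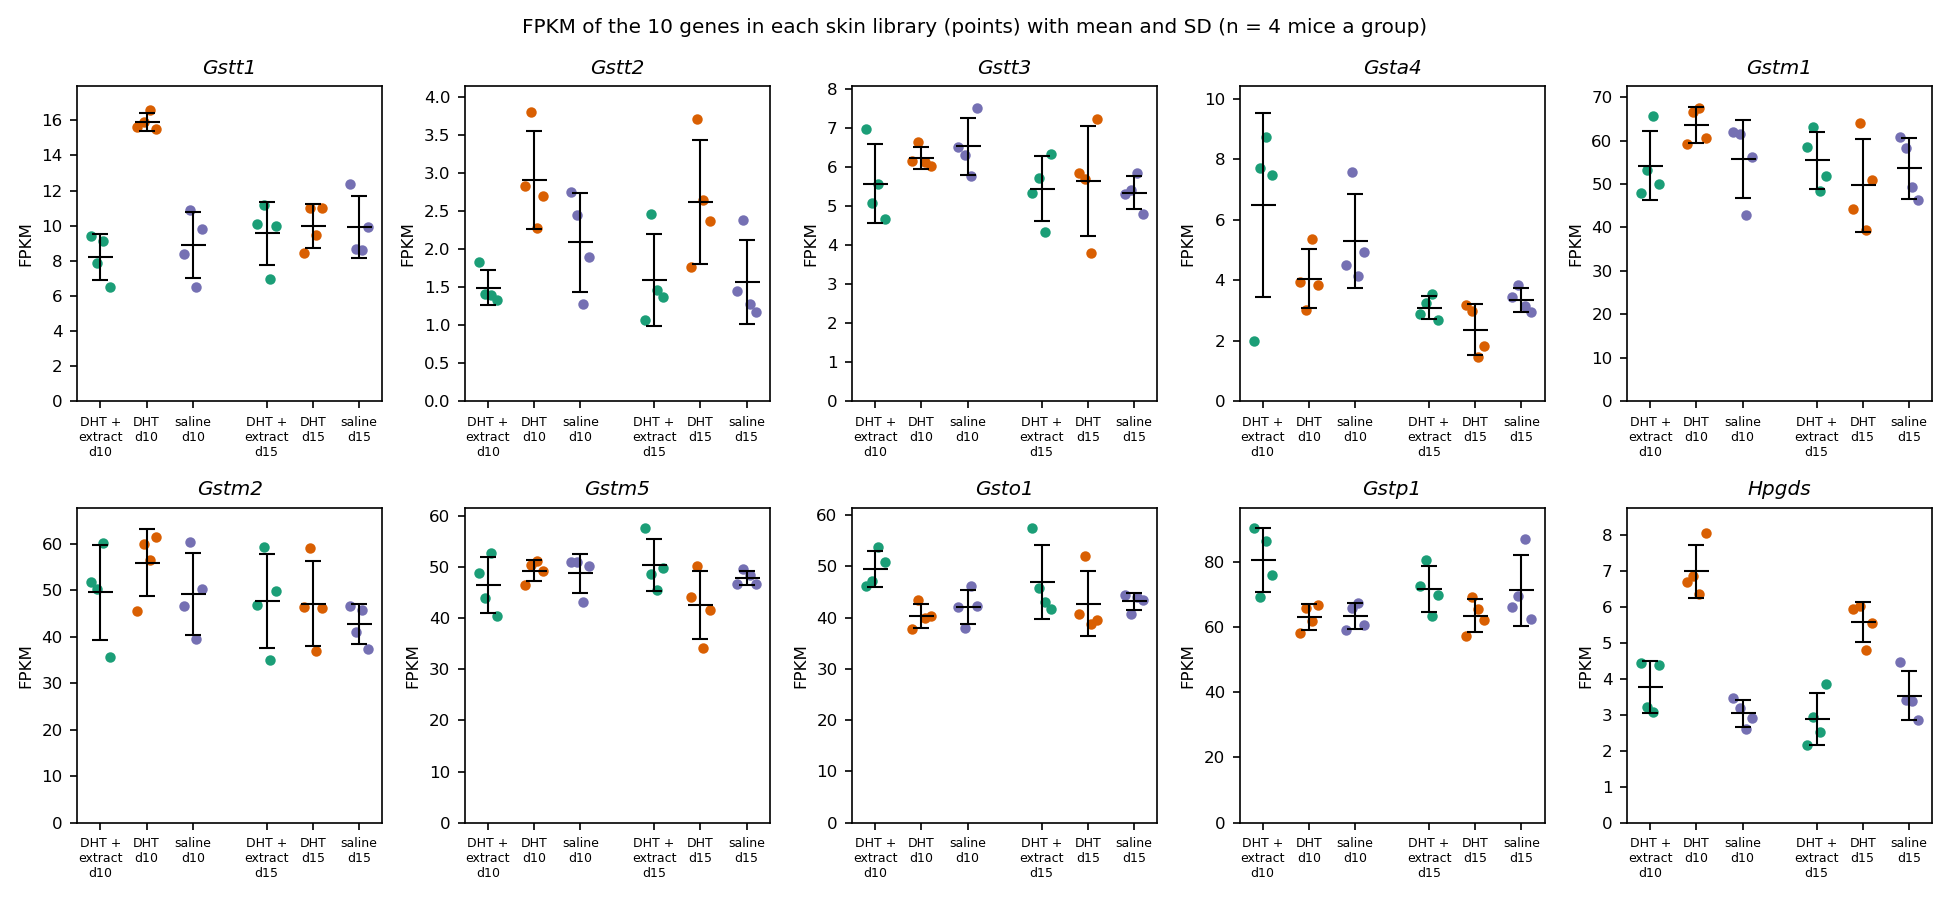
FPKM of each of the 10 genes (1 panel a gene, vertical axis in FPKM) in the 6 groups, with 1 point a mouse and the mean ± SD of 4 mice, for treatment (DHT + extract), model (DHT) and control (saline) mice at days 10 and 15 (d10, d15). Hpgds lies between 4.79 and 8.04 FPKM in the model mice of both days and between 2.17 and 4.47 FPKM in all other mice, while Gstt1 is high in the 4 model mice of day 10 only.

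Hpgds, the prostaglandin D synthase, was the one gene of the 10 whose level at day 15 passed the test between groups. At day 15 it had 2.17, 2.94, 2.53 and 3.86 FPKM in treatment mice, against 5.92, 6.01, 4.79 and 5.54 FPKM in model mice. Control mice of day 15 had 4.47, 3.42, 3.37 and 2.86 FPKM. Every model mouse was thus above every treatment and every control mouse of that day, as happened for 12.8% of all genes tested (in either direction) between treatment and model mice and for 20.2% between model and control mice. Treatment and control mice overlapped.

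Under limma, with Benjamini-Hochberg adjustment over the 13039 genes tested, Hpgds fell in treatment mice relative to model mice at day 15 by 0.78 on the log2(FPKM + 1) scale (SE 0.13, 95% interval -1.05 to -0.51, adjusted p = 0.00106, n = 4 each). It was the only one of the 10 genes called, in a comparison that called 19.7% of all genes tested. The call rests on a spread estimated from all 6 groups: in a fit of the treatment and model libraries of day 15 alone the difference was the same, its adjusted p was 0.134, and 0 genes of the whole table passed (2503 at an unadjusted p under 0.05). With voom on recovered reads over all groups, 2586 genes were called, Hpgds among them (adjusted p = 0.00114).

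In the same day-15 libraries Hpgds rose in model mice relative to control mice, by 0.54 (SE 0.13, 95% interval 0.27 to 0.81, adjusted p = 0.0161 by limma, n = 4 each), again as the only one of the 10 called where 10.8% of all genes were called. Leaving out control day 15 replicate 3 gave an adjusted p of 0.0511, and leaving out control day 15 replicate 4 gave 0.0604. Both comparisons share the 4 model libraries. Treatment and control mice of day 15 averaged 2.87 ± 0.73 and 3.53 ± 0.67 FPKM (SD, n = 4 each), a difference of -0.23 with an interval of -0.50 to 0.04 and an adjusted p of 0.328 by limma, in a comparison that called 0.314% of all genes.

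At day 10, Hpgds had 4.43, 3.20, 3.08 and 4.37 FPKM in treatment mice, 6.69, 6.85, 6.34 and 8.04 FPKM in model mice, and 3.47, 3.18, 2.61 and 2.90 FPKM in control mice. All 4 model mice lay above the rest, as at day 15; between model and control mice of day 10, 21.8% of all genes had groups that did not overlap. The log2 difference was -0.75 in treatment relative to model mice and 0.98 in model relative to control mice. The first is the contrast by which the gene was chosen and the second shares its libraries, so both stand as values. With days set side by side, Hpgds averaged 6.98 ± 0.74 FPKM at day 10 and 5.57 ± 0.55 FPKM at day 15 in model mice.

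Macrophages and mast cells are known to make Hpgds, and macrophage markers were called in several of the same contrasts. At day 10, 0 of 14 macrophage markers were called in treatment against model mice (2 at an unadjusted p under 0.05 and 0 by voom, median log2 difference -0.19), where 0.192% of all genes were. In model against control mice of day 10, 11 rose and 0 fell (median 1.25), 78.6% of the list against 13.8% of all genes. In treatment against control mice of day 10, 8 rose and 0 fell (median 1.02), 57.1% of the list against 3.24% of all genes. At day 15 the summed level of these markers ran from 867 to 3114 FPKM in treatment mice and from 2239 to 4417 FPKM in model mice, with 1167 to 2247 FPKM in control mice. Of these 14 markers, 4 fell and 0 rose in treatment relative to model mice at day 15 by limma (median log2 difference -0.48, against -0.02 over all genes tested). That is 28.6% of the list against 19.7% of all genes. In model relative to control mice of day 15, 3 rose and 0 fell (median 0.75), 21.4% of the list against 10.8% of all genes. The lowest by p in treatment against model mice of day 15 was Mrc1, the mannose receptor of resident macrophages. It had 59.5 FPKM in treatment and 102 FPKM in model mice (log2 difference -0.83, adjusted p = 0.00686 by limma). In replicates 1 to 4 of day 15, treatment mice had macrophage sums of 1828, 3114, 867 and 2436 FPKM. Hpgds in those mice was 2.17, 2.94, 2.53 and 3.86 FPKM. Model mice had sums of 2239, 2776, 4417 and 2556 FPKM, with Hpgds at 5.92, 6.01, 4.79 and 5.54 FPKM. Control mice had sums of 2247, 1846, 1167 and 1783 FPKM, with Hpgds at 4.47, 3.42, 3.37 and 2.86 FPKM.

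Taken as a percentage of the macrophage sum, Hpgds had a median of 0.139% (0.0944% to 0.291%) in treatment mice, 0.217% (0.109% to 0.264%) in model mice and 0.192% (0.161% to 0.288%) in control mice of day 15, all overlapping. At day 10 the medians were 0.194% (0.156% to 0.274%) in treatment mice, 0.326% (0.271% to 0.371%) in model mice and 0.318% (0.277% to 0.382%) in control mice. Much of the macrophage sum was 1 gene: Lyz2 averaged 1121 FPKM in model mice of day 10, where the median sum was 2198 FPKM. Of the 8 mast cell markers, 0 passed limma in either direction between treatment and model mice at day 15 (1 at an unadjusted p under 0.05 and 0 by voom on recovered reads), and their sum ran from 83.4 to 149 FPKM in treatment mice, from 131 to 202 FPKM in model mice and from 86.0 to 150 FPKM in control mice. In model against control mice of day 15, 0 of the 8 were called (5 at an unadjusted p under 0.05 and 0 by voom), 7 of the 8 differences were above 0 and their median was 0.50, against -0.03 over all genes. At day 10 the median was 0.06 in treatment against model mice and 0.53 in model against control mice. What part these cells have in the Hpgds differences was not tested.

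**Figure D2:**
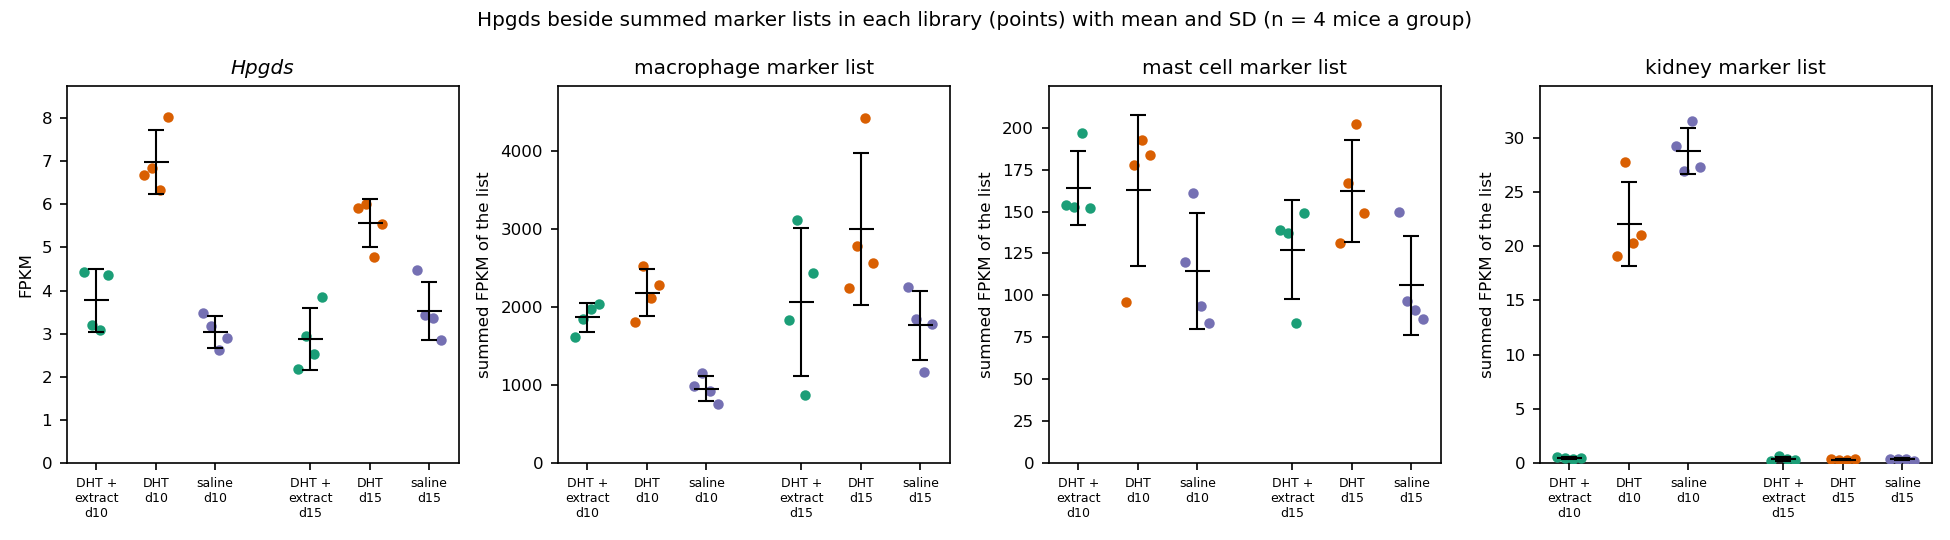
Hpgds (first panel, FPKM) beside the summed FPKM of 14 macrophage, 8 mast cell and 12 kidney markers (other panels), with 1 point a mouse and the mean ± SD of 4 mice for treatment (DHT + extract), model (DHT) and control (saline) groups at days 10 and 15 (d10, d15). Hpgds is high in both model groups, the macrophage sums of day 15 run from 867 to 3114 FPKM in treatment mice and from 2239 to 4417 FPKM in model mice, and kidney sums are high in the model and control groups of day 10.

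Gstt1, a theta-class enzyme with activity towards small halogenated compounds, was high in 1 group. It had 9.41, 7.85, 9.11 and 6.52 FPKM in treatment mice of day 10, 15.6, 15.9, 16.6 and 15.5 FPKM in model mice and 8.39, 10.9, 6.53 and 9.83 FPKM in control mice. The 4 model mice lay close together and above all other 20 mice of the study, whose highest value was 12.4 FPKM. The choice of the gene fixed this in part. Of all genes tested, 21.8% had groups that did not overlap between model and control mice of day 10. Between treatment and model mice of that day the share was 8.99%. The log2 difference was -0.89 in treatment relative to model mice, the contrast used for choosing the gene, and 0.79 in model relative to control mice.

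At day 15, in libraries that the choice did not use, no such pattern was detectable. Gstt1 had 10.1, 11.2, 6.99 and 10.0 FPKM in treatment mice, 8.43, 11, 9.46 and 11 FPKM in model mice and 12.4, 8.70, 8.62 and 9.91 FPKM in control mice. The groups overlapped throughout. By limma the difference was -0.06 in treatment relative to model mice (95% interval -0.37 to 0.24, adjusted p = 0.786) and 0.02 in model relative to control mice (-0.29 to 0.32, adjusted p = 0.954). Whether the effects differ between days was not tested for Gstt1, since such a test would contain the libraries by which it was chosen.

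The day-10 libraries differed in a further respect that bears on every day-10 value. Kidney transcripts were present in all 4 model and all 4 control mice of day 10: the summed level of 12 kidney genes was 0.352 to 0.492 FPKM in treatment mice, 19.1 to 27.8 FPKM in model mice and 27.0 to 31.6 FPKM in control mice, against at most 0.582 FPKM in every library of day 15. Kap, a kidney androgen-regulated protein, averaged 16.4 ± 2.8 FPKM in model mice and 21.7 ± 1.6 FPKM in control mice (SD, n = 4 each) and was listed at 0 in the treatment mice of day 10 and in all 12 mice of day 15. The part of these transcripts in the model-control differences of Gstt1 and Hpgds was not tested. In treatment against model or control mice of day 10 the presence of kidney transcripts and the treatment cannot be told apart.

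In the gene cluster of Gstt1 on chromosome 10, RefSeq (GRCm38.p6) places Gstt3, Gstt1, Gstt4 and Gstt2 in that order. Over the 24 libraries Gstt1 had an r of 0.58 with Gstt2 and of 0.38 with Gstt3 on the log2(FPKM + 1) scale. Outside the cluster r was 0.66 for Hpgds, 0.61 for Gstm2 and 0.61 for Gstm1, and -0.34 (Gsto1) to 0.33 (Gstm5) for the rest of the 10 genes. After the mean of each group was subtracted, r was 0.347 for Gstt2 and 0.485 for Gstt3, against 0.739 for Gstm2, 0.625 for Gstm1 and 0.236 for Hpgds. These values describe libraries that share groups, among them those by which Gstt1 was chosen. Gstt2 had 1.83, 1.41, 1.39 and 1.33 FPKM in treatment mice, 2.83, 3.80, 2.28 and 2.69 FPKM in model mice and 2.74, 2.45, 1.27 and 1.89 FPKM in control mice of day 10. Treatment and model mice did not overlap there, with a log2 difference of -0.64 that is given without a test. At day 15, Gstt2 had 1.06, 2.46, 1.46 and 1.37 FPKM in treatment mice, 1.76, 3.71, 2.64 and 2.36 FPKM in model mice and 1.45, 2.38, 1.27 and 1.17 FPKM in control mice. Replicate 2 was the highest mouse in each of the 3 groups.

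For Gstt2 at day 15 limma gave -0.48 in treatment relative to model mice (95% interval -0.87 to -0.10, adjusted p = 0.0705) and 0.49 in model relative to control mice (0.10 to 0.88, adjusted p = 0.0864), neither past the threshold of 0.05. The day-15 libraries held 69 to 237 reads of it, and its coefficient of variation among the mice of a group was 31.1% to 38.1%. Leaving out treatment day 15 replicate 2 gave an adjusted p of 0.0224 in treatment against model mice, leaving out model day 15 replicate 1 gave 0.0304 there and 0.0361 in model against control mice. With the replicate number as a block the adjusted p was 0.0277 in treatment against model mice and 0.0378 in model against control mice. In the other alternatives, of 16 in all, Gstt2 stayed above 0.05 in both contrasts, at up to 0.245 in model against control mice.

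Gstt3 varied little between the groups. It had 6.99, 5.07, 5.57 and 4.67 FPKM in treatment mice, 6.15, 6.64, 6.14 and 6.02 FPKM in model mice and 6.51, 6.32, 5.78 and 7.51 FPKM in control mice of day 10, with all groups overlapping. Over both days its group means differed by at most 1.22 times, and it passed no test. Gstt4, the remaining gene of the cluster, was below the filter on low levels, with 0.04 FPKM on average in treatment mice of day 10.

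Gsta4, the 4-hydroxynonenal transferase, had the widest spread of group means, with the lower ones at day 15. At day 10 it had 1.98, 7.72, 8.73 and 7.46 FPKM in treatment mice, 3.93, 3.03, 5.37 and 3.84 FPKM in model mice and 4.50, 7.56, 4.15 and 4.94 FPKM in control mice. Treatment day 10 replicate 1 was the lowest mouse of that day and the other 3 treatment mice were above all 4 model mice. The log2 difference in treatment relative to model mice was 0.45, given without a test, and 0.85 without that replicate. Over 16 alternatives it ran from 0.28 to 0.85. At day 15 it had 2.89, 3.26, 3.55 and 2.67 FPKM in treatment mice, 3.17, 2.98, 1.45 and 1.83 FPKM in model mice and 3.46, 3.85, 3.15 and 2.95 FPKM in control mice.

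Between days, Gsta4 differed by -0.74 at day 15 relative to day 10 in treatment mice (95% interval -1.30 to -0.17, adjusted p = 0.0881 by limma), by -0.60 in model mice (adjusted p = 0.159) and by -0.51 in control mice (-1.07 to 0.06, adjusted p = 0.264), where the 4 mice of day 15 all lay below the 4 mice of day 10, a lack of overlap shared by 22.4% of all genes. None of these passed the threshold. Leaving out treatment day 10 replicate 1 brought the treatment difference to -1.14 with an adjusted p of 0.00214 by limma. In the other alternatives, of 16 in all, it stayed above 0.05, at up to 0.592. Over all of them the difference ran from -1.14 to -0.41.

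Among the abundant classes, group means lay close together. Gstm1 averaged 54.2 ± 7.9 FPKM in treatment mice, 63.5 ± 4.2 FPKM in model mice and 55.7 ± 9.0 FPKM in control mice of day 10 (SD, n = 4 each). At day 15 it averaged 55.4 ± 6.6 FPKM in treatment mice, 49.7 ± 10.7 FPKM in model mice and 53.6 ± 7.0 FPKM in control mice. Gstm2 stood between 42.7 FPKM (control mice of day 15) and 55.9 FPKM (model mice of day 10) in its group means. These mu-class enzymes conjugate a broad range of aromatic and lipid-derived electrophiles.

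Gstm5 had 57.5, 48.7, 45.5 and 49.8 FPKM in treatment mice and 44.1, 50.2, 34.1 and 41.6 FPKM in model mice of day 15, overlapping sets with a log2 difference of 0.25 (95% interval 0.04 to 0.45, adjusted p = 0.077 by limma). Leaving out treatment day 15 replicate 3 gave an adjusted p of 0.0466 and leaving out model day 15 replicate 2 gave 0.0311. The other alternatives, of 17 in all, left Gstm5 above 0.05 there. In model mice between days, 0 of the 8 genes tested passed where 8.47% of all genes did. There Gstm1 differed by -0.37 at day 15 relative to day 10 (adjusted p = 0.0990) and Gstm5 by -0.22 (adjusted p = 0.152). Without model day 15 replicate 2 the adjusted p was 0.028 for Gstm1 (log2 difference -0.50) and 0.0486 for Gstm5 (-0.30). In the other alternatives, of 17 in all, both stayed above 0.05, at up to 0.359 for Gstm1 and 0.576 for Gstm5.

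Gsto1, an omega-class enzyme with thioltransferase activity, and Gstp1, the pi-class enzyme abundant in epithelia, had their highest group means in treatment mice of day 10. Gsto1 had 46.2, 47.1, 53.7 and 50.9 FPKM in treatment mice, 37.8, 43.4, 39.9 and 40.3 FPKM in model mice and 42.0, 37.9, 46.1 and 42.2 FPKM in control mice. Gstp1 had 90.3, 69.1, 86.4 and 76.0 FPKM in treatment mice, 58.1, 65.8, 61.8 and 66.7 FPKM in model mice and 59.1, 65.9, 67.4 and 60.6 FPKM in control mice. In both genes the 4 treatment mice lay above all 8 other mice of that day, for Gsto1 by 46.2 against 46.1 FPKM at the nearest. In either direction, 23.8% of all genes had treatment and control groups that did not overlap there. For treatment and model groups, the contrast that served the choice, it was 8.99%. The share set apart from both groups was not counted.

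Relative to model mice of day 10 the treatment differences were 0.29 for Gsto1 and 0.34 for Gstp1, given without a test because that contrast served the choice of genes. Relative to control mice of day 10 they were 0.23 for Gsto1 (95% interval 0.03 to 0.43, adjusted p = 0.144) and 0.34 for Gstp1 (0.13 to 0.54, adjusted p = 0.0619) by limma, where 0 of the 8 genes tested were called (2 at an unadjusted p under 0.05 and 0 by voom) and 3.24% of all genes were. A fit of those 2 groups alone gave Gstp1 an adjusted p of 0.0334, and the other alternatives, of 17 in all, left it above 0.05. Gstp1 has related genes beside it on chromosome 19, Gstp2 and Gstp3. How reads were shared out among such genes in counting could move its level, and likewise among the mu-class genes clustered on chromosome 3.

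Counted over the family, the tests of the remaining contrasts were these. In model against control mice of day 10, 0 of the 8 genes tested were called (0 at an unadjusted p under 0.05 and 0 by voom), where 13.8% of all genes were; their log2 differences ran from -0.31 to 0.35. In treatment against control mice of day 15, 0 of 10 were called (0 at an unadjusted p under 0.05 and 0 by voom), where 0.314% of all genes were, too few to read anything from that count. Day 15 against day 10 called 0 of 8 in treatment mice (1 at an unadjusted p under 0.05, 0 by voom), 0 of 8 in model mice (3 and 0) and 0 of 10 in control mice (0 and 0), where 9.64%, 8.47% and 4.81% of all genes were called. The test of whether the model-control difference changed between days called 0 of the 8 genes and 0 of all 13039 genes (0%), 352 of which had an unadjusted p under 0.05.

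In the contrast that served the choice, treatment against model mice of day 10, 5 of the 10 genes had groups that did not overlap: Gstt1, Gstt2 and Hpgds lower in treatment mice, Gsto1 and Gstp1 higher. Over all genes tested, 0.192% were called there and 8.99% had groups that did not overlap. Nothing is read from the count of 5. At day 15 the treatment and model groups failed to overlap in 1 of the 10 genes, Hpgds, a share near the 12.8% of all genes.

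**Figure D3:**
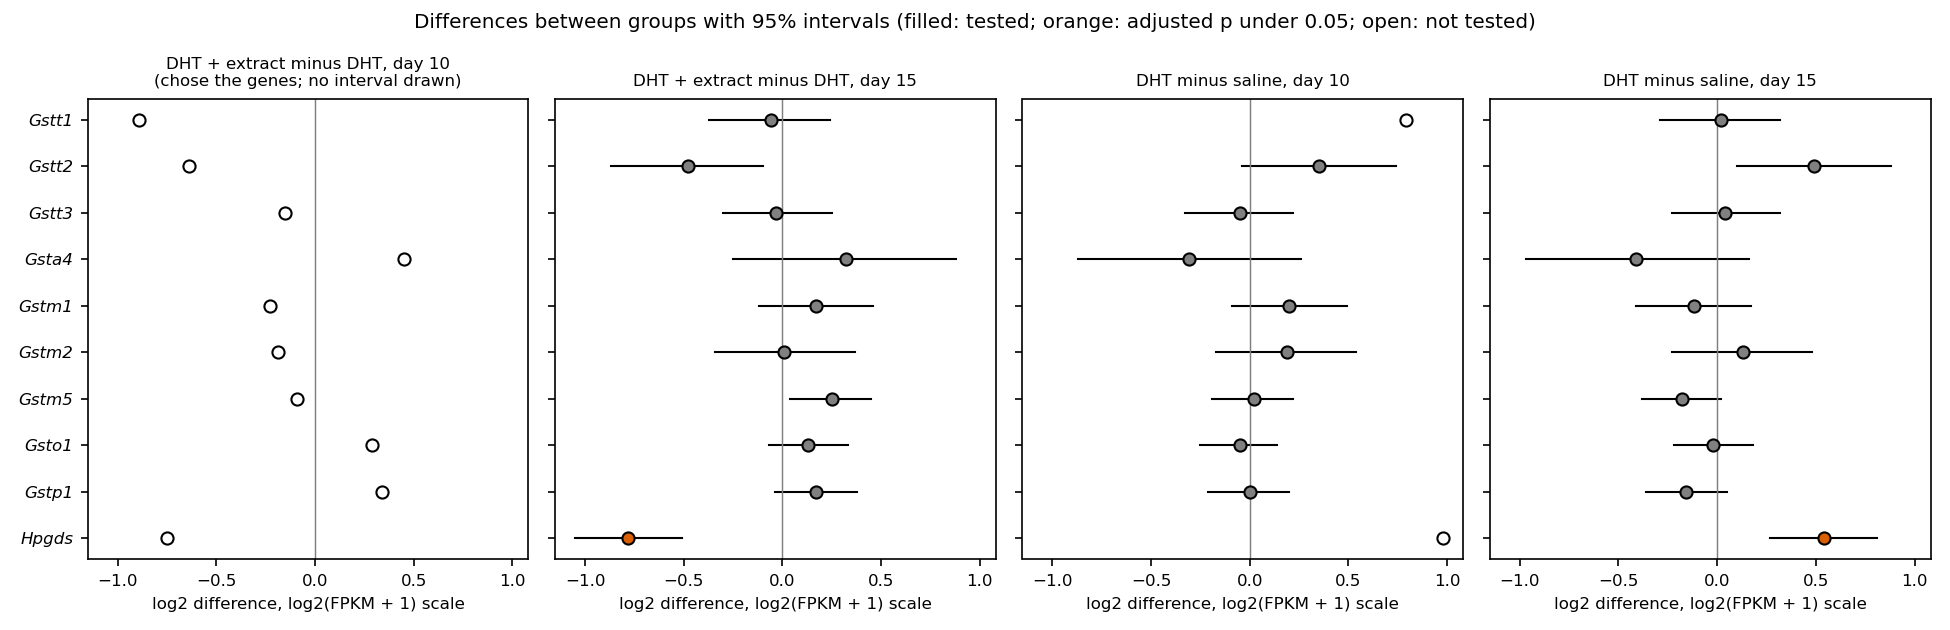
Log2 differences of the 10 genes on the log2(FPKM + 1) scale, for treatment minus model and model minus control mice at days 10 and 15, with the 95% interval of the fit where a test was made; orange points passed it and open points are given without a test. At day 15 the Hpgds interval for treatment minus model mice, -1.05 to -0.51, and that for model minus control mice, 0.27 to 0.81, stand off 0, and the Gstt1 points lie at -0.06 and 0.02.

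Beyond these 10 genes, 14 of 18 other glutathione transferases and membrane-bound relatives were tested. In treatment against model mice of day 15, 2 rose and 0 fell, 14.3% of the list against 19.7% of all genes (median log2 difference 0.12). Mgst3, a microsomal enzyme that also acts on leukotriene precursors, had 62.7 ± 8.6 FPKM in treatment mice and 46.1 ± 9.0 FPKM in model mice (SD, n = 4 each; log2 difference 0.45, adjusted p = 0.0124 by limma). Gstm4 had 4.62 ± 0.28 FPKM in treatment mice and 3.37 ± 0.56 FPKM in model mice (0.37, adjusted p = 0.0276). Neither call held with treatment day 15 replicate 1 left out (Mgst3 at an adjusted p of 0.0539), and that of Gstm4 was also lost without treatment day 15 replicate 4, model day 15 replicate 3 or model day 15 replicate 4. None of the 14 was called in model against control mice on either day, with 0 at day 10 and 1 at day 15 at an unadjusted p under 0.05 and 0 by voom on both days.

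Gsta2, an alpha-class enzyme, was called in a pair of other contrasts. At day 10 it averaged 1.51 ± 0.53 FPKM in treatment mice, 2.80 ± 0.41 FPKM in model mice and 2.89 ± 0.20 FPKM in control mice, and it fell in treatment relative to control mice (log2 difference -0.65, adjusted p = 0.0144 by limma, 0.0682 without treatment day 10 replicate 2). It also fell in model mice at day 15 relative to day 10 (-0.68, adjusted p = 0.00832), a call that held with any 1 library left out. The other gene of the list called there was Mgst2 (-0.44, adjusted p = 0.0421, lost without any 1 of 7 libraries). Model and control mice of day 10 are the groups that held kidney transcripts, and the part of these in the Gsta2 level was not tested. At day 15, without such transcripts, Gsta2 averaged 2.07 FPKM in treatment mice, 1.39 FPKM in model mice and 2.09 FPKM in control mice.

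Of the genes that make, recycle and handle glutathione, 32 were tested. In treatment against model mice of day 15, 7 rose and 3 fell, 31.2% of the list against 19.7% of all genes (median log2 difference 0.08). In model against control mice of day 15, 1 rose and 6 fell, 21.9% against 10.8% (median -0.07). G6pdx, glucose-6-phosphate dehydrogenase, which supplies NADPH to reduce glutathione, averaged 122 ± 11.9 FPKM in treatment mice, 82.7 ± 8.8 FPKM in model mice and 105 ± 4.4 FPKM in control mice of day 15, a log2 difference of 0.56 in treatment relative to model mice (adjusted p = 0.00104) and of -0.35 in model relative to control mice (adjusted p = 0.0246, lost without any 1 of 5 libraries of those 2 groups). Gss, glutathione synthetase, averaged 11.5 ± 0.6 FPKM in treatment mice, 8.32 ± 1.51 FPKM in model mice and 12.1 ± 1.5 FPKM in control mice (0.44, adjusted p = 0.00446, and -0.50, adjusted p = 0.00564).

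Slc3a2, a subunit of the cystine importer, rose to 20.1 ± 1.4 FPKM in treatment mice, against 15.8 ± 2.2 FPKM in model mice of day 15 (0.33, adjusted p = 0.00547). Ggt1, which cleaves glutathione outside the cell, rose to 14.8 ± 2.8 FPKM in treatment mice, against 8.65 ± 2.40 FPKM in model mice (0.73, adjusted p = 0.00668). The 3 that fell were Abcc5 (log2 difference -0.49), an exporter of organic anions, Gpx8 (-0.47), a peroxidase of the endoplasmic reticulum, and Abcc4 (-0.56), whose call was lost without model day 15 replicate 2. Of the 10 calls in this contrast, 8 held with any 1 library left out, and all 10 were lost in the fit of the 2 groups alone.

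Abcc4 was the one that rose in model relative to control mice of day 15, at 5.31 ± 0.69 FPKM in model mice and 3.41 ± 0.17 FPKM in control mice (0.51, adjusted p = 0.0442, lost without any 1 of 7 libraries). Chac1, which degrades glutathione, averaged 26.7 ± 7.0 FPKM in model mice and 60.4 ± 11.3 FPKM in control mice of day 15 (-1.16, adjusted p = 0.00515). Gpx2, an epithelial glutathione peroxidase, fell in model relative to control mice on both days, to 4.47 ± 0.96 FPKM against 11.4 ± 3.7 FPKM at day 10 (-1.14, adjusted p = 0.00363) and to 7.21 ± 2.37 FPKM against 14.5 ± 0.9 FPKM at day 15 (-0.96, adjusted p = 0.0125). At day 10 in all, 3 genes of the list rose and 10 fell in model relative to control mice, 40.6% of the list against 13.8% of all genes (median -0.07), 5 of these 13 calls holding with any 1 library left out. Hagh, which hydrolyses a glutathione thioester, was the lowest by p at 9.38 ± 1.67 FPKM in model mice and 14.6 ± 1.9 FPKM in control mice (-0.59, adjusted p = 0.00302). G6pdx (-0.42, adjusted p = 0.00841) and Slc3a2 (-0.31, adjusted p = 0.0116) also fell. Those that rose were Gpx8 (0.51, adjusted p = 0.0104), Ggt5, a relative of Ggt1 (0.70, adjusted p = 0.0166, lost without model day 10 replicate 2 or 4 or control day 10 replicate 3), and Gpx3. Gpx3, the secreted peroxidase, was the most abundant gene among those that rose, at 648 ± 67 FPKM in model mice and 358 ± 51 FPKM in control mice (0.86, adjusted p = 0.0172, lost without model day 10 replicate 3 or 4 or control day 10 replicate 4). Gpx3 is also known from kidney, and the part of the kidney transcripts of that day in its level was not tested.

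Genes of the NRF2 pathway moved in both directions. Of 25 tested, 2 rose and 1 fell in treatment against model mice of day 15, 12% of the list against 19.7% of all genes (median log2 difference -0.08). Those that rose with the extract were Tkt, transketolase (64.7 ± 3.5 FPKM in treatment mice and 49.3 ± 3.8 FPKM in model mice, adjusted p = 0.00118), and Taldo1, transaldolase (184 ± 5.8 FPKM in treatment mice and 152 ± 8.6 FPKM in model mice, adjusted p = 0.00412), both of the pentose phosphate pathway. Both calls held with any 1 library left out, and both were lost in the fit of the 2 groups alone, which called 0 genes. Ugdh, UDP-glucose dehydrogenase, was the one that fell, at 44.1 FPKM in treatment mice and 68.8 FPKM in model mice (adjusted p = 0.0392, lost without any 1 of 5 libraries). Model against control mice of day 15 had 0 that rose and 3 that fell, 12% against 10.8% of all genes (median 0.06): Tkt (log2 difference -0.30, adjusted p = 0.0117), Me1, malic enzyme (-0.49, adjusted p = 0.0252), and Taldo1 (-0.21, adjusted p = 0.0318). Of these only the call of Tkt held with any 1 library left out. Model against control mice of day 10 had 3 that rose and 3 that fell, 24% against 13.8% (median 0.13). Aox1, an aldehyde oxidase (0.64), Ftl1, ferritin light chain (0.75), and Blvrb, biliverdin reductase B (0.65), rose, while Tkt (-0.26), Taldo1 (-0.20) and Osgin1 (-0.35) fell, and each of these 6 calls was lost without model day 10 replicate 3. In treatment against control mice of day 10, 2 rose and 0 fell, 8.00% of the list against 3.24% of all genes, one of them Hmox1, haem oxygenase, at 231 ± 96 FPKM in treatment mice and 68.7 ± 13.3 FPKM in control mice (1.62, adjusted p = 0.0161). Both calls, Hmox1 and Akr1b8, were lost without treatment day 10 replicate 2, 3 or 4 or control day 10 replicate 3.

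The prostaglandin D pathway around Hpgds was tested through 17 of 20 genes. In treatment against model mice of day 15, 4 rose and 0 fell, 23.5% of the list and so near the 19.7% of all genes (median log2 difference -0.01). They were Pla2g2e, a secreted phospholipase A2, Ptgds, the lipocalin-type synthase that makes prostaglandin D without glutathione, Ptges2, a prostaglandin E synthase, and Akr1c18, an aldo-keto reductase of progesterone and prostaglandins. Ptgds, the other synthase for the product of Hpgds, averaged 27.0 ± 4.7 FPKM in treatment mice and 16.1 ± 5.4 FPKM in model mice (0.76, SE 0.23, adjusted p = 0.0239 by limma), so that its direction was opposite to that of Hpgds in the same libraries. Its call was lost without treatment day 15 replicate 1 or model day 15 replicate 2, and the other 3 calls were likewise lost without treatment day 15 replicate 1.

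In model against control mice of day 15, 0 of these genes rose and 2 fell, 11.8% of the list against 10.8% of all genes: Akr1c18, at 3.63 ± 1.27 FPKM in model mice and 9.66 ± 1.40 FPKM in control mice (-1.23, adjusted p = 0.00266), and Pla2g2e, at 35.7 ± 7.9 FPKM in model mice and 59.8 ± 6.1 FPKM in control mice (-0.74, adjusted p = 0.0227, lost without any 1 of 6 libraries). Pla2g2e also fell in model relative to control mice of day 10 (21.4 ± 7.3 FPKM in model mice and 36.5 ± 8.8 FPKM in control mice, adjusted p = 0.0159, lost without model day 10 replicate 3 or 4 or control day 10 replicate 3). Both receptors for prostaglandin D were scarce: group means of Ptgdr2 lay between 0.03 and 0.05 FPKM and those of Ptgdr at 0.17 FPKM or less, below the filter on low levels.

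**Figure D4:**
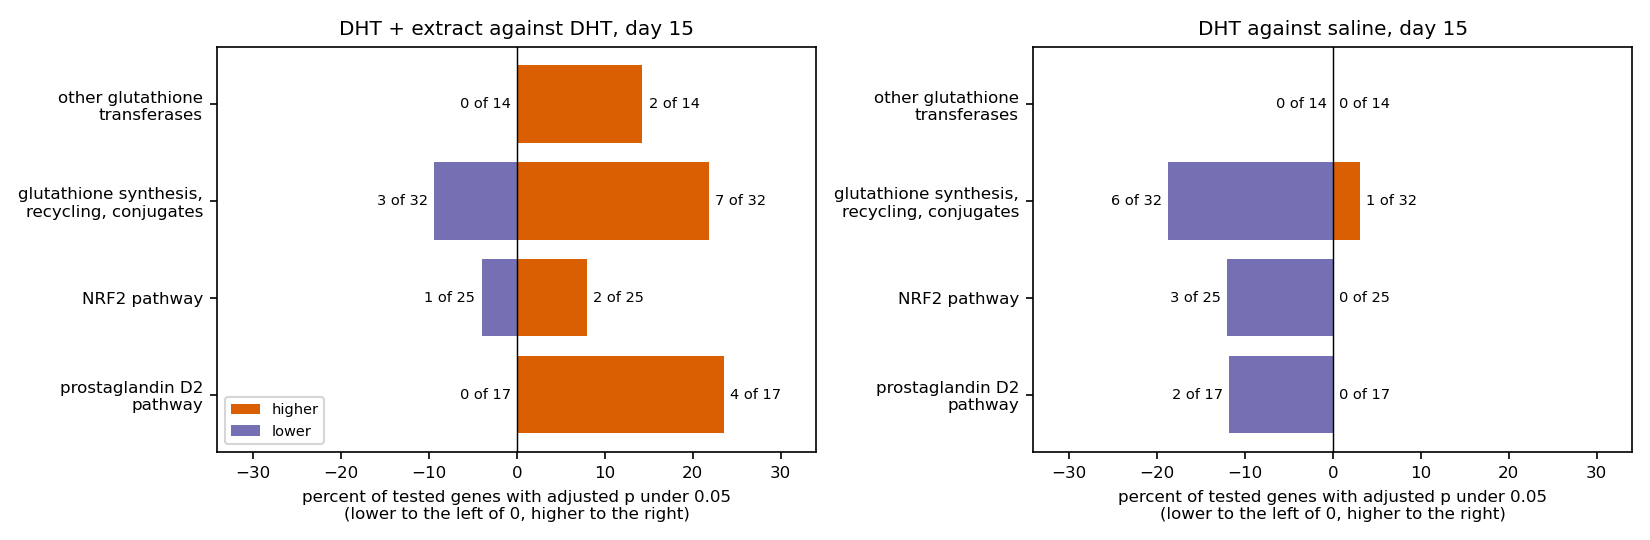
Percentage of the tested genes of each pathway list that were higher (right of 0) or lower (left of 0) at an adjusted p under 0.05 by limma, for treatment against model mice and model against control mice of day 15, with the counts printed at the bars. With the extract, the glutathione synthesis and recycling list has 7 higher and 3 lower of 32 tested and the prostaglandin D list 4 and 0 of 17.

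Markers of hair and of other cells were counted in the same libraries. All 10 hair shaft and inner root sheath markers rose in treatment relative to model mice of day 15, where 19.7% of all genes were called. The fit of the 2 groups alone called 0 genes, so these calls were lost there. Of these 10 markers, 5 (50%) fell in model relative to control mice of that day, against 10.8% of all genes. Of the 8 dermal fibroblast markers, 2 fell and 0 rose in treatment relative to model mice of day 15. That is 25% of the list and so near the 19.7% of all genes. Summed transcripts of 4 Y-linked genes were low in treatment day 10 replicate 3 (28.3 FPKM) and in treatment day 15 replicates 1, 2 and 4 (22.3, 22.3 and 33.4 FPKM), against 39.2 to 50.6 FPKM in all model and control mice. Without these 4 libraries the Hpgds difference was -0.89 in treatment relative to model mice of day 15. Only 1 treatment library of that day was then left, so this value cannot stand for the group.

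Genes with the pattern most like Hpgds over the 24 libraries, by Pearson's r of log2(FPKM + 1), were Reps2 (0.92), Rnf169 (0.90), P2ry12 (0.90), Poglut3 (0.89) and Ap1s2 (0.89). P2ry12 encodes a purinergic receptor known from microglia and other tissue macrophages. After the mean of each group was subtracted, so that only differences among mice of one group counted, the nearest were Arhgap18 (0.81), Sema3d (0.81), Mettl21a (0.79), Ap1s2 (0.78) and Gpr34 (0.77). Ap1s2, a subunit of a clathrin adaptor, stood in both sets.

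For Gstt1 the nearest patterns were Scara3 (0.82), Dnm1 (0.80), Nkain4 (0.79), Olfml1 (0.78) and Calml4 (0.78), and with group means subtracted Bloc1s1 (0.90), Serpina3m (0.88), Thnsl2 (0.84), Phyhd1 (0.84) and Fut8 (0.83). No gene stood in both sets. Gstt1 and Hpgds had an r of 0.66 over the 24 libraries and of 0.24 with group means subtracted, where Gstt1 followed Gstm2 more closely (0.74). These coefficients describe 24 libraries that share groups and days, and the genes were picked as the highest of 13039.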

How the data were processed

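Poly(A) RNA of whole mouse skin was extracted with TRIzol and made into libraries with a VAHTS Universal V6 kit, per the labels' protocols. Per the submitters' processing notes, the tools were fastp, HISAT2 and HTSeq and the build was GRCm39; versions, the annotation release and strand handling are not given in the sources used here. The authors deposited FPKM for 18892 gene symbols in 24 columns, which were matched to samples by their names, and values were used without further scaling.

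FPKM was transformed as log2(FPKM + 1), so differences of scarce genes are understated. Genes with at least 1 FPKM in at least 4 libraries (13039, with 5853 removed) were fitted with limma 3.58.1 under R 4.3.3 (trend and robust), with 1 mean per group over all 24 libraries. Tests were two-sided, adjusted by Benjamini-Hochberg over all genes within each of 10 comparisons, and called at an adjusted p under 0.05. Intervals are 95% intervals of the fit, and p-values measure the spread between mice as labelled.

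Whole reads were recovered from the FPKM steps for 18715 of 18715 genes above 0 (100%, within 0.01 of a read for low and 0.05 for high genes), giving 37048896 to 41117262 reads a library. These served as the depth and as input to voom in an alternative fit.

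The 10 genes, pathway lists and marker lists were chosen with earlier results of these data known. All 10 genes are described; from each pathway list the genes called are named, up to 4 per direction by smallest p, in the contrasts described; and the 5 genes with the highest Pearson r are named for Gstt1 and Hpgds. Alternatives were another pseudocount (0.1), no filter, a mean of at least 5 FPKM, other scalings, a fit of only the groups compared, a replicate block, voom, and each library left out in turn. The fit was tested on simulated data. Promoter windows came from RefSeq (GRCm38.p6), another build than that of the table; the coordinates of the windows shown and the order of neighbouring genes are of that build.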

Additional observations from a re-analysis of the deposited data

Results flagged for a closer look

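Among the 60 sets of 4 mice formed by the 10 genes and 6 groups, 3 had a mouse far from the other 3 of its group, by a gap to the nearest mouse that exceeded the 95% critical value of Dixon's test. Chance alone gives such a gap in about 1 of 20 sets. Gstt2 in treatment mice of day 10 had a highest value of 1.83 FPKM, where the other 3 mice had 1.33 to 1.41 FPKM. Gstm5 in control mice of day 10 had a lowest value of 43.1 FPKM. Gsto1 in model mice of day 15 had a highest value of 52.1 FPKM.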

How the results depend on the processing

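Of 1750 differences of the 10 genes under the alternatives, 1729 kept their side of the threshold (or, where no test was made, moved by less than the spread between mice). The sign was another in 101 of the 1750, each for a difference of at most 0.19, and in 0 of the called differences. The number of the 10 genes called in treatment against model mice of day 15, which was 1, became 0 with a mean of at least 5 FPKM (Hpgds, Gsta4 and Gstt2 were then not tested), 0 in the fit of only the groups compared, and 2 with the replicate block (Hpgds and Gstt2); it was 1 to 2 with 1 library left out. In model against control mice of day 15 the number, 1, became 0 with a mean of at least 5 FPKM and 2 with the replicate block, and 0 to 2 with 1 library left out. In treatment against control mice of day 10 it was 0, and 1 (Gstp1) in the fit of only the groups compared. Day 15 against day 10 gave 0 to 2 in model mice and 0 to 1 in treatment mice with 1 library left out. For Hpgds, the difference of treatment from model mice at day 15 ran from -0.97 to -0.69 over the alternatives (adjusted p from 5.15e-04 to 0.134) and that of model from control mice from 0.47 to 0.66 (adjusted p from 0.00637 to 0.0604); the cause of the changed calls was not tested beyond the smaller numbers of genes or libraries that define these fits. For same-numbered mice of different groups, 60 correlations of their deviations from the group means ran from -0.63 to 0.51 with a median of 0.05. For other-numbered mice, 180 such correlations ran from -0.555 to 0.608 with a median of -0.02. These values show no pairing by number, but they cannot exclude one.

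Over all genes, the calls in treatment against model mice of day 15 numbered 2563, with 1221 to 2947 when 1 library was left out and 0 in the fit of those groups alone; the calls in model against control mice numbered 1803 at day 10 (536 to 2405) and 1408 at day 15 (363 to 2240). Groups of 4 mice limit every comparison, the scarce genes rest on few reads (Gsta4 57 to 344 a library, Hpgds 331 to 1238), and the kidney transcripts of day 10 and the low Y-linked sums of 4 treatment libraries follow the groups in part.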
